A study of Mus musculus with 9 samples.

Results

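The expression of 10 genes of the Notch pathway was analysed in lung fibroblasts of aged mice: the receptors Notch1, Notch2, and Notch3, the ligands Jag1, Jag2, and Dll1, and the target genes Hes1, Hey1, Hey2, and Heyl. The genes were chosen by name, as receptors, ligands, and transcriptional targets. They are 10 of the 43346 genes in the deposited table, and all 10 passed the filter that left 16877 genes for testing. RNA-Seq was performed on cells sorted from the lungs of Col1a1-GFP mice, a transgenic line on the FVB background in which GFP marks cells with an active collagen I promoter. The sort kept GFP+ cells and removed those with CD45 (leukocytes), CD31 (endothelium), or EpCAM (epithelium) on their surface. All mice were male and aged, with an age of 72 weeks in the sample labels and 18 months in the methods of the study, and all carried the reporter. The 4 aged sham mice received saline into the trachea and the 5 aged bleo mice a single dose of bleomycin, a drug that injures the lung and causes fibrosis, and both groups were studied on day 30, with 1 library per mouse. The comparison of aged bleo with aged sham asks how fibroblasts of aged mice differ a month after injury, and young mice were not analysed here.

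Notch receptors are single-pass membrane proteins that are activated by Jagged or Delta-like ligands on a neighbouring cell. Ligand endocytosis exposes the receptor to cleavage, first by ADAM10 and then by gamma-secretase, and the released intracellular domain enters the nucleus and binds RBPJ together with a Mastermind coactivator. The Hes and Hey genes are classical targets of this complex and encode basic helix-loop-helix repressors. In the lung, NOTCH3 is known from pericytes and vascular smooth muscle, and Notch signalling has been linked to myofibroblast differentiation.

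The libraries held between 49921946 and 68260600 counts. Levels are given as CPM, counts scaled to library size after normalization for library composition (TMM). The members were ranked by FPKM, which also divides by gene length. Sums of markers add CPM over genes, and overlapping transcripts were compared with members by raw count. SE is the standard error of a log2 fold change, and FDR is the adjusted p-value of edgeR's quasi-likelihood test over the 16877 genes tested, and a gene was called differentially expressed at an FDR under 0.10 with a fold change over 1.5. Col1a1 itself was at 3649 to 4559 CPM in aged sham and 13560.0 to 25950.0 CPM in aged bleo. Of the sort markers, Pecam1 (CD31) was at 2.44 to 6.70 CPM and Epcam at 0.409 to 1.201 CPM in the 9 libraries, and Ptprc (CD45) at 30.6 to 183 CPM. Some libraries stood apart in markers. The sum of 10 cell cycle genes was 443 CPM in aged bleo 4 and 382 CPM in aged bleo 5. It was 91.6 to 181 CPM in aged bleo 1 to 3. Aged bleo 4 had the highest sum of 12 leukocyte markers (2234 CPM, against 554 to 902 CPM in the other aged bleo libraries and 263 to 962 CPM in aged sham), and aged sham 1 had the highest sum of 10 cell cycle genes in its group (124.5 CPM, against 63.7 to 66.9 CPM). Aged sham 4 had the highest leukocyte sum of its group (962 CPM, against 263 to 500.0 CPM), and aged sham 3 the highest level of the epithelial gene Sftpc (57.9 CPM, against 3.08 to 5.465 CPM in the other aged sham libraries). The table names each library by a pair of numbers. The second of them is 4 in every aged sham library and in aged bleo 4, 5 in aged bleo 1, 2, and 3, and 6 in aged bleo 5. Its meaning is not stated, and as it nearly coincides with treatment, the number and the treatment cannot be told apart.

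Notch3 was the member with a called change and was higher in aged bleo. Hes1 and Heyl were also higher and Jag1 was lower at an FDR under 0.10, with fold changes below 1.5, and the other 6 members had an FDR above 0.10. Of the 10 members, 1 was thus called, where 23.8% of all genes tested passed both thresholds (12.3% upward and 11.5% downward). At an FDR under 0.10 with any fold change there were 4 of 10 members, and 44.8% of all genes. In 0 of 10 members were the libraries of both groups fully separated, against 32.2% of all genes. The median log2 fold change of the 10 members was 0.29, and that of all genes tested 0.006. In bulk RNA, fewer cells of a type and less RNA per cell cannot be told apart.

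**Figure D1:**
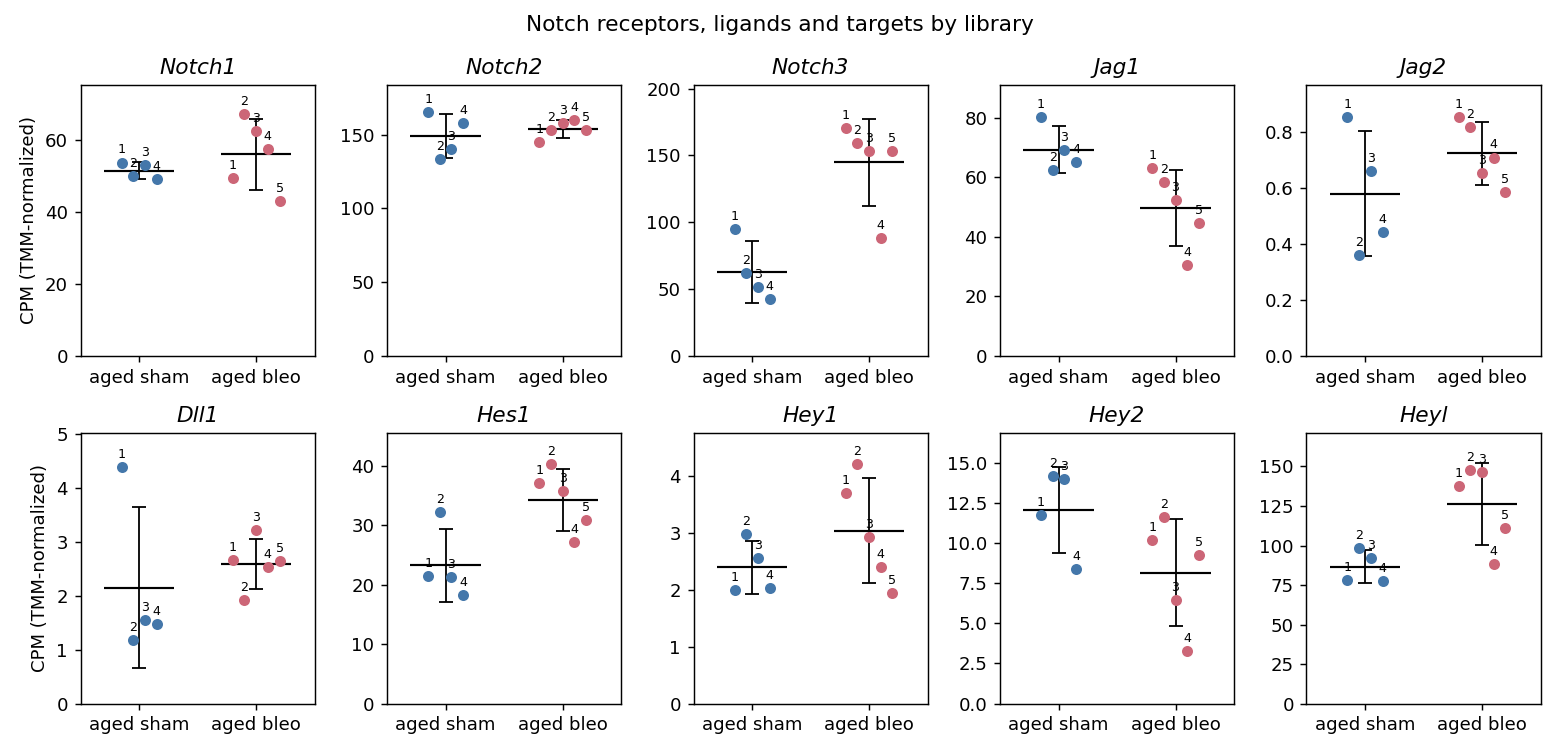
Normalized level of each of the 10 genes in every library (vertical axes, CPM from 0; points numbered by replicate, blue for aged sham with n = 4 and red for aged bleo with n = 5), with the mean (line) and SD (bars). Notch3 and Heyl were above the highest aged sham library in 4 of 5 aged bleo libraries, and aged bleo 4 was the exception in both.

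Among the receptors, Notch3 (ENSMUSG00000038146, GRCm38 chromosome 17, 32120820 to 32166880, minus strand) rose after bleomycin while Notch1 and Notch2 had no detectable change. Notch3 was at 94.7, 62.4, 51.6, and 42.3 CPM in aged sham 1 to 4. In aged bleo 1 to 5 it was at 170.2, 159.6, 153, 88.1, and 153 CPM. Aged bleo 4 lay below aged sham 1, and the other 4 aged bleo libraries lay above every aged sham library. The mean was 62.7 ± 22.9 CPM (SD, n = 4) in aged sham and 145 ± 32.5 CPM (SD, n = 5) in aged bleo, a 2.31-fold rise (log2 fold change 1.21, SE 0.26, FDR 0.00804). Aged sham 4 was the lowest library and had the highest sum of leukocyte markers of its group. The part of these cells in its Notch3 level was not tested. The call held with each library left out in turn (log2 fold change 1.06 to 1.47) and under the other 11 settings tried (1.04 to 1.25). Among the libraries whose second number is 4, the single aged bleo library had 88.1 CPM, within the aged sham range of 42.3 to 94.7 CPM, and 1 library allows no test.

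The lincRNA Gm17276 lies over 21020 bases of Notch3 on the opposite strand. Of all 16867 genes outside the 10, Gm17276 had the pattern over the 9 libraries most like that of Notch3, whatever its mean level. Its log2 fold change was 1.23, and its centred log2 CPM differed from that of Notch3 by 0.07 (root mean square). It had a mean of 437 counts, 7.10% of those of Notch3. No source used here says if reads were counted by strand, so the reads of these genes cannot be told apart. The next genes in this order were Gprc5c and Ttc9, with differences of 0.21 and 0.22 and log2 fold changes of 0.81 and 1.15.

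The 250 bases before the Notch3 start in RefSeq (GRCm38.p6, chr17:32166891-32167140, minus strand, printed 5′ to 3′ in the direction of transcription) are shown because Notch3 was the called member. The start of the deposited gene model lies 10 bases away. Capitals mark the N box CACNAG, a binding sequence of Hes proteins, on either strand, which was found at -204 and at -159 (first base from the start).
Notch3: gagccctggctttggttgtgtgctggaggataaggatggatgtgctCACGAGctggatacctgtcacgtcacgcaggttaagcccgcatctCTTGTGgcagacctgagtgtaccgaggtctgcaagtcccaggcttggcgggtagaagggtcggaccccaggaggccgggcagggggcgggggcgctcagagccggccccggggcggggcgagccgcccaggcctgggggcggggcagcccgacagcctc
RefSeq promoter windows (250 bases before to 50 after the start) were at hand for 7 of the 10 genes: Notch1, Notch2, Notch3, Jag1, Jag2, Dll1, and Hey2. The N box was in a window of 4 of these 7 genes (Notch1, Notch2, Notch3, and Dll1). By window, it was in 4 of their 8 windows and in 42.5% of all 32851 windows. The RefSeq start of Notch1 lies 12841 bases from that of the deposited gene model.

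Notch2 (ENSMUSG00000027878, chromosome 3, 98013538 to 98150367, plus strand), the receptor with the highest level per length in aged sham, was at 165.5, 133, 140.4, and 158 CPM in aged sham 1 to 4 and at 145, 153.5, 158, 160.3, and 153 CPM in aged bleo 1 to 5. All aged bleo values lay inside the aged sham range. Its log2 fold change was 0.04 (standard error 0.08, FDR 0.694). Notch1 (ENSMUSG00000026923, chromosome 2, 26457903 to 26516663, minus strand) was at 53.8, 50.1, 53.1, and 49.1 CPM in aged sham and at 49.5, 67.3, 62.6, 57.45, and 43.1 CPM in aged bleo. It varied more within aged bleo (SD 9.77 CPM) than within aged sham (SD 2.28 CPM), and its log2 fold change was 0.12 (standard error 0.12, FDR 0.478), with a range of 0.05 (without aged bleo 2) to 0.20 (without aged bleo 5) when single libraries were left out. A pair of processed transcripts overlap Notch1 on the opposite strand, of which 0610009E02Rik had 16.1% and Gm13568 3.86% of its mean count.

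The ligands were led by Jag1 (ENSMUSG00000027276, chromosome 2, 137081456 to 137116644, minus strand), which was lower at an FDR under 0.10 but not called. Jag1 was at 80.2, 62.3, 69.3, and 65.1 CPM in aged sham 1 to 4 and at 62.9, 58.4, 52.4, 30.4, and 44.5 CPM in aged bleo 1 to 5. Of the aged bleo libraries, 4 lay below every aged sham library, and aged bleo 1 lay just above aged sham 2. The mean was 69.2 ± 7.86 CPM (SD, n = 4) in aged sham and 49.7 ± 12.8 CPM (SD, n = 5) in aged bleo, or 1.39-fold lower (log2 fold change -0.48, SE 0.19, FDR 0.0779). With single libraries left out, the FDR of Jag1 ranged from 0.04999 to 0.182 and was under 0.10 in 3 of 9 cases, and without aged bleo 4 the log2 fold change was -0.35 (FDR 0.0539).

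Dll1 (ENSMUSG00000014773, chromosome 17, 15367354 to 15376872, minus strand), a Delta-like ligand, was at 4.38, 1.18, 1.56, and 1.47 CPM in aged sham 1 to 4 and at 2.66, 1.92, 3.21, 2.54, and 2.64 CPM in aged bleo 1 to 5. Aged sham 1 was the highest of all 9 libraries, and the other 3 aged sham libraries lay below every aged bleo library. With all libraries the log2 fold change was 0.27 (standard error 0.38, FDR 0.608), and without aged sham 1 it was 0.88 (FDR 0.01695) and past the threshold. Without aged sham 2 it was 0.07 (FDR 0.913). Within its group, aged sham 1 also had the highest sum of cell cycle genes and the highest Notch3 and Jag1. The part of these differences in the value of Dll1 was not tested. The lincRNA A930024N18Rik overlaps Dll1 by 1873 bases on the opposite strand and had 23.6% of its mean count. Its pattern over the libraries was the most like that of Dll1 (root mean square difference 0.23). Jag2 (ENSMUSG00000002799, chromosome 12, 112908590 to 112929495, minus strand) had 21 to 53 counts in each library. It was at 0.856, 0.359, 0.662, and 0.444 CPM in aged sham and at 0.856, 0.817, 0.654, 0.71, and 0.586 CPM in aged bleo (log2 fold change 0.32, with SE 0.27, FDR 0.39). The groups overlapped, and with single libraries left out the log2 fold change of Jag2 ranged from 0.14 (without aged sham 2) to 0.57 (without aged sham 1).

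Of the 4 target genes, Hes1 and Heyl were higher at an FDR under 0.10 but not called, as their folds were under 1.5, Hey1 had no detectable change, and Hey2 had lower means without passing the test. Hes1 (ENSMUSG00000022528, chromosome 16, 30064384 to 30067796, plus strand) was at 21.5, 32.2, 21.25, and 18.2 CPM in aged sham 1 to 4 and at 37.1, 40.3, 35.8, 27.2, and 30.8 CPM in aged bleo 1 to 5. Aged sham 2 lay among the aged bleo libraries, and the other 3 aged sham libraries lay below all of them, with aged sham 4 lowest. The fold change was 1.47 (log2 fold change 0.55, SE 0.18, FDR 0.0366), just under the threshold of 1.5.

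Heyl (ENSMUSG00000032744, chromosome 4, 123233556 to 123249875, plus strand) was at 78.1, 98.3, 92.2, and 77.5 CPM in aged sham 1 to 4 and at 138, 148, 146, 88.2, and 111 CPM in aged bleo 1 to 5. As with Notch3, aged bleo 4 was the only aged bleo library within the aged sham range. The fold change was 1.46 (log2 fold change 0.54, SE 0.16, FDR 0.0273). Both Hes1 and Heyl kept an FDR under 0.10 with any single library left out, and both passed the fold threshold without aged sham 2 (log2 fold changes 0.75 and 0.61), without aged bleo 4 (0.62 and 0.64), or without aged bleo 5 (0.59 for both). The genes with the pattern most like that of Heyl over the 9 libraries were Sparcl1, Mical3, and Tgfb3. Their differences were 0.06, 0.06, and 0.09 (root mean square, centred log2 CPM). For Hes1 the genes were 2610027K06Rik, Aldh1a1, and Fhod1, with differences of 0.08, 0.12, and 0.13.

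Hey1 (ENSMUSG00000040289, chromosome 3, 8663359 to 8667256, minus strand) was at 2.00, 2.98, 2.55, and 2.04 CPM in aged sham and at 3.70, 4.21, 2.93, 2.40, and 1.94 CPM in aged bleo. The aged bleo libraries spanned the aged sham range on both sides (log2 fold change 0.34, SE 0.25, FDR 0.309). Hey2 (ENSMUSG00000019789, chromosome 10, 30832359 to 30842801, minus strand) was at 11.8, 14.2, 13.96, and 8.41 CPM in aged sham 1 to 4 and at 10.2, 11.6, 6.48, 3.26, and 9.26 CPM in aged bleo 1 to 5. Aged bleo 3 and 4 lay below every aged sham library and the other 3 inside the range (log2 fold change -0.57, SE 0.33, FDR 0.206). Without aged bleo 4 the log2 fold change was -0.37. Il17b, Ryr2, and Map3k7cl were the genes most like Hey2 in pattern, with differences of 0.15, 0.17, and 0.17. Their log2 fold changes were -0.46, -0.62, and -0.65.

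The Hey2 promoter is shown because it was the only one of the 7 with a window to hold the core GTGGGAA of the sequence bound by RBPJ, searched on both strands. The core was in 6.38% of the 32851 RefSeq windows. In Hey2 it was found on the opposite strand, as TTCCCAC, at -207, and on the coding strand at -4, so that the second match spans the start. The start of the deposited gene model lies 18 bases from that of RefSeq. Capitals mark the matches, and both stretches are given 5′ to 3′ on the minus strand of GRCm38.p6, the first from -250 to -21 (chr10:30842804-30843033) and the second from -14 to 10 (chr10:30842774-30842797).
Hey2, upstream: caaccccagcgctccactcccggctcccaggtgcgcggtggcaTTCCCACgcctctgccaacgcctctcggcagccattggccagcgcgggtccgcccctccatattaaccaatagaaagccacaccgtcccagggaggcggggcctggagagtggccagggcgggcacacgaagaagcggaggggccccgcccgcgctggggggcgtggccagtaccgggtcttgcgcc
Hey2, around the start: gggctgcagcGTGGGAAagaacct

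The genes with the pattern most like that of Notch2 were Zcchc6, Nin, and Slc26a2 (differences of 0.05 each). For Notch1 they were Dhrs11, 1700030C12Rik, and B930094E09Rik (0.09 to 0.10), and for Jag1 Gm26904, Il6st, and Klf7 (0.08 to 0.09). Closest in pattern to Hey1 were Ier5l, Slc9b2, and 2010107G23Rik (0.17 to 0.18), and to Jag2 Shroom4, Gm10642, and Il27ra (0.20 to 0.21). After A930024N18Rik, Rdh10 and Lxn followed for Dll1 (0.24 and 0.26).

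Levels per length put Heyl first in both groups. In aged sham the order by mean FPKM was Heyl (7.11), Notch2 (5.96), Jag1 (4.98), Hes1 (4.81), Notch3 (3.28), Hey2 (1.99), Notch1 (1.52), Hey1 (0.308), Dll1 (0.213), and Jag2 (0.06). In aged bleo it was Heyl (10.6), Notch3 (7.72), Hes1 (7.21), Notch2 (6.31), Jag1 (3.66), Notch1 (1.69), Hey2 (1.37), Hey1 (0.399), Dll1 (0.264), and Jag2 (0.0769). Among neighbours in aged sham, only Notch1 and Hey1, and Dll1 and Jag2, had ranges over libraries that did not overlap. In aged bleo, Notch2 and Jag1, Jag1 and Notch1, Hey2 and Hey1, and Dll1 and Jag2 did not overlap. Compared within each library, Notch2 lay above Jag1 and Notch3 above Hey2 in 4 of 4 aged sham libraries. Heyl lay above Notch3 in 5 of 5 aged bleo libraries. The other neighbours with overlapping ranges changed order in some libraries. Notch3 moved from the fifth place to the second and Jag1 from the third to the fifth.

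Shares within a library do not depend on scaling between libraries, and they were computed from FPKM for the receptors (Notch1 to Notch4), the ligands (Jag1, Jag2, Dll1, Dll3, and Dll4), and the targets. Differences in the mean share were tested by a two-sided exact permutation test of the group labels, whose smallest p is 0.00794 with 4 against 5 libraries, and adjusted over the 13 shares computed, with 0.10 as threshold. Notch3 made up 37.55, 32.2, 27.2, and 22.0% of the receptor FPKM in aged sham 1 to 4 and 54.9, 50.55, 49.4, 36.1, and 51.9% in aged bleo 1 to 5. Aged bleo 4 lay within the aged sham range, and the other aged bleo libraries lay above it. The mean share rose from 29.75% ± 6.65 (SD, n = 4) to 48.55% ± 7.26 (SD, n = 5; exact permutation test, p = 0.0238, adjusted p = 0.0774). The share of Notch2 fell from 55.7% ± 5.65 to 40.4% ± 5.73 (SD, n = 4 and 5; exact permutation test, p = 0.0238, adjusted p = 0.0774) and that of Notch1 from 14.2% ± 1.58 to 10.8% ± 2.11 (exact permutation test, p = 0.0397, adjusted p = 0.086), while their own levels had no called change. Notch3 exceeded Notch2 per length in 4 of 5 aged bleo libraries and 0 of 4 aged sham libraries.

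**Figure D2:**
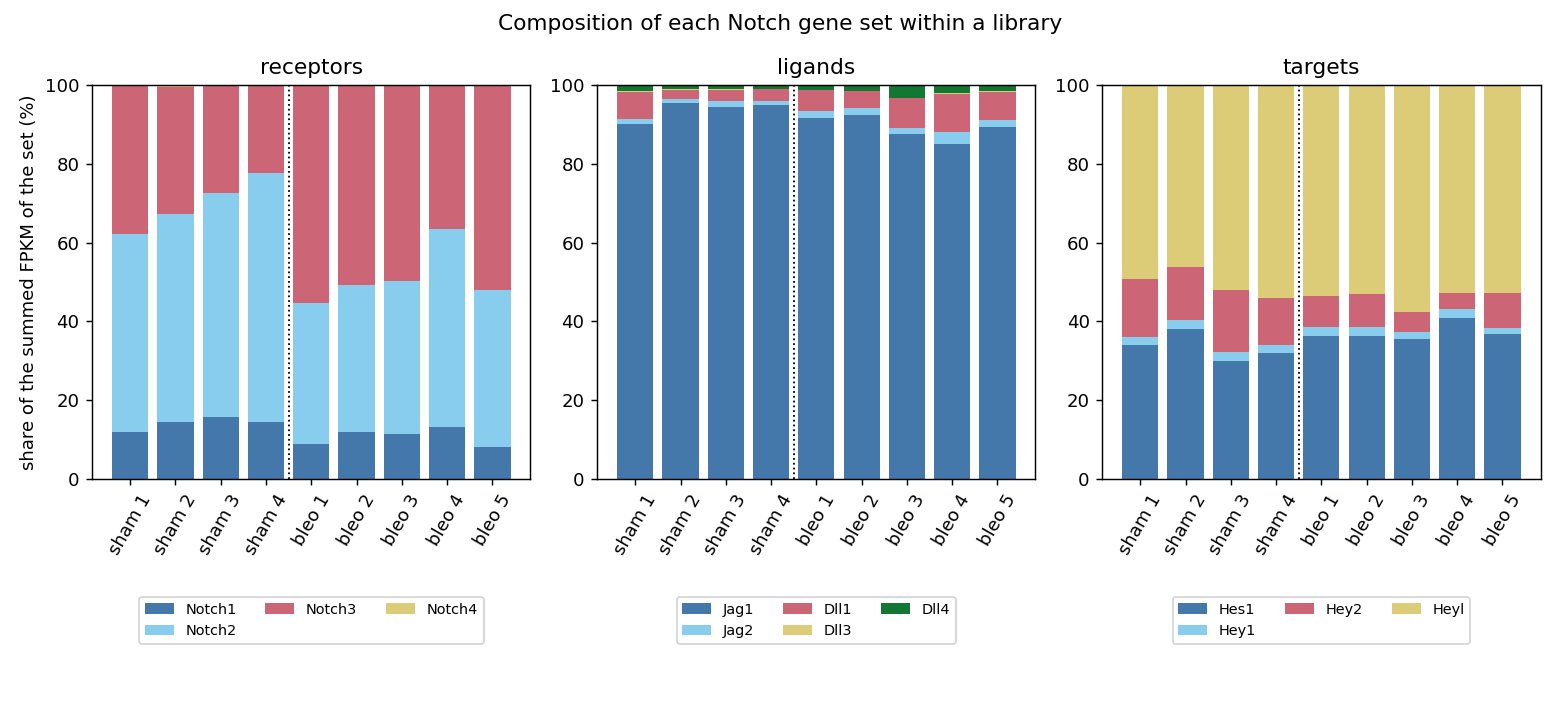
Composition of the receptors, ligands, and targets in each library, as the percentage of the summed FPKM of the set (vertical axis, 0 to 100%; 1 stacked bar per library, colours for genes, dotted line between aged sham and aged bleo). Notch3 made up 22.0 to 37.55% of receptor FPKM in aged sham and 36.1 to 54.9% in aged bleo, and Hey2 11.8 to 15.8% and 3.92 to 8.84% of target FPKM.

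Among the targets, Hey2 had shares of 14.85, 13.4, 15.8, and 11.8% in aged sham 1 to 4 and of 7.94, 8.35, 5.12, 3.92, and 8.84% in aged bleo 1 to 5. The groups did not overlap, and the mean share fell from 13.95% ± 1.75 to 6.83% ± 2.18 (SD, n = 4 and 5; exact permutation test, p = 0.00794, the smallest possible, adjusted p = 0.0774). Heyl was at 3.29 to 4.60 times the FPKM of Hey2 in aged sham and at 5.98 to 13.5 times in aged bleo. The shares of Hes1 and Heyl did not pass the test (adjusted p = 0.131 for both, exact permutation test), nor did that of Hey1 (adjusted p = 0.611).

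Jag1 dominated the ligands, with a mean share of 93.8% ± 2.503 in aged sham and 89.2% ± 2.96 in aged bleo (SD, n = 4 and 5; exact permutation test, p = 0.0556, adjusted p = 0.103). The share of Jag2 rose from 1.101% ± 0.284 to 1.95% ± 0.517 (exact permutation test, p = 0.0159, adjusted p = 0.0774), without overlap between the groups. That of Dll4 rose from 1.08% ± 0.24 to 1.93% ± 0.794 (exact permutation test, p = 0.0397, adjusted p = 0.086). The levels of Jag2 and Dll4 themselves had no called change (log2 fold changes 0.32 and 0.36, FDR 0.39 and 0.466). Dll1 made up 3.80% ± 2.005 and 6.82% ± 2.16 (exact permutation test, p = 0.0794, adjusted p = 0.115). The ratio of Notch3 to Jag1 in FPKM was 0.47 to 0.856 in aged sham and 1.96 to 2.49 in aged bleo, and in this ratio aged bleo 4 stood with its group at 2.10. Shares of a set divide a common sum, so they are not independent of each other. Of the 13 shares, 6 passed the threshold with all libraries and 0 without aged sham 3, without aged bleo 3, or without aged bleo 5. The exact permutation test gave 4, 2, and 2 shares an unadjusted p under 0.05 in these cases, where 3 against 5 libraries allow no p below 0.0179 and 4 against 4 none below 0.0286.

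The rest of the pathway was described with 61 genes in 8 lists, of which 58 were tested (Dll3, Hes2, and Hes5 were too low). Of the 58 genes, 7 were called higher and 8 lower in aged bleo, or 25.9%, near the 23.8% of all genes. In 23 of the 58 genes (39.7%) the libraries of the groups did not overlap, against 32.2% of all genes, and the median log2 fold change was -0.03. In 5 of the 8 lists, called genes went in both directions.

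**Figure D3:**
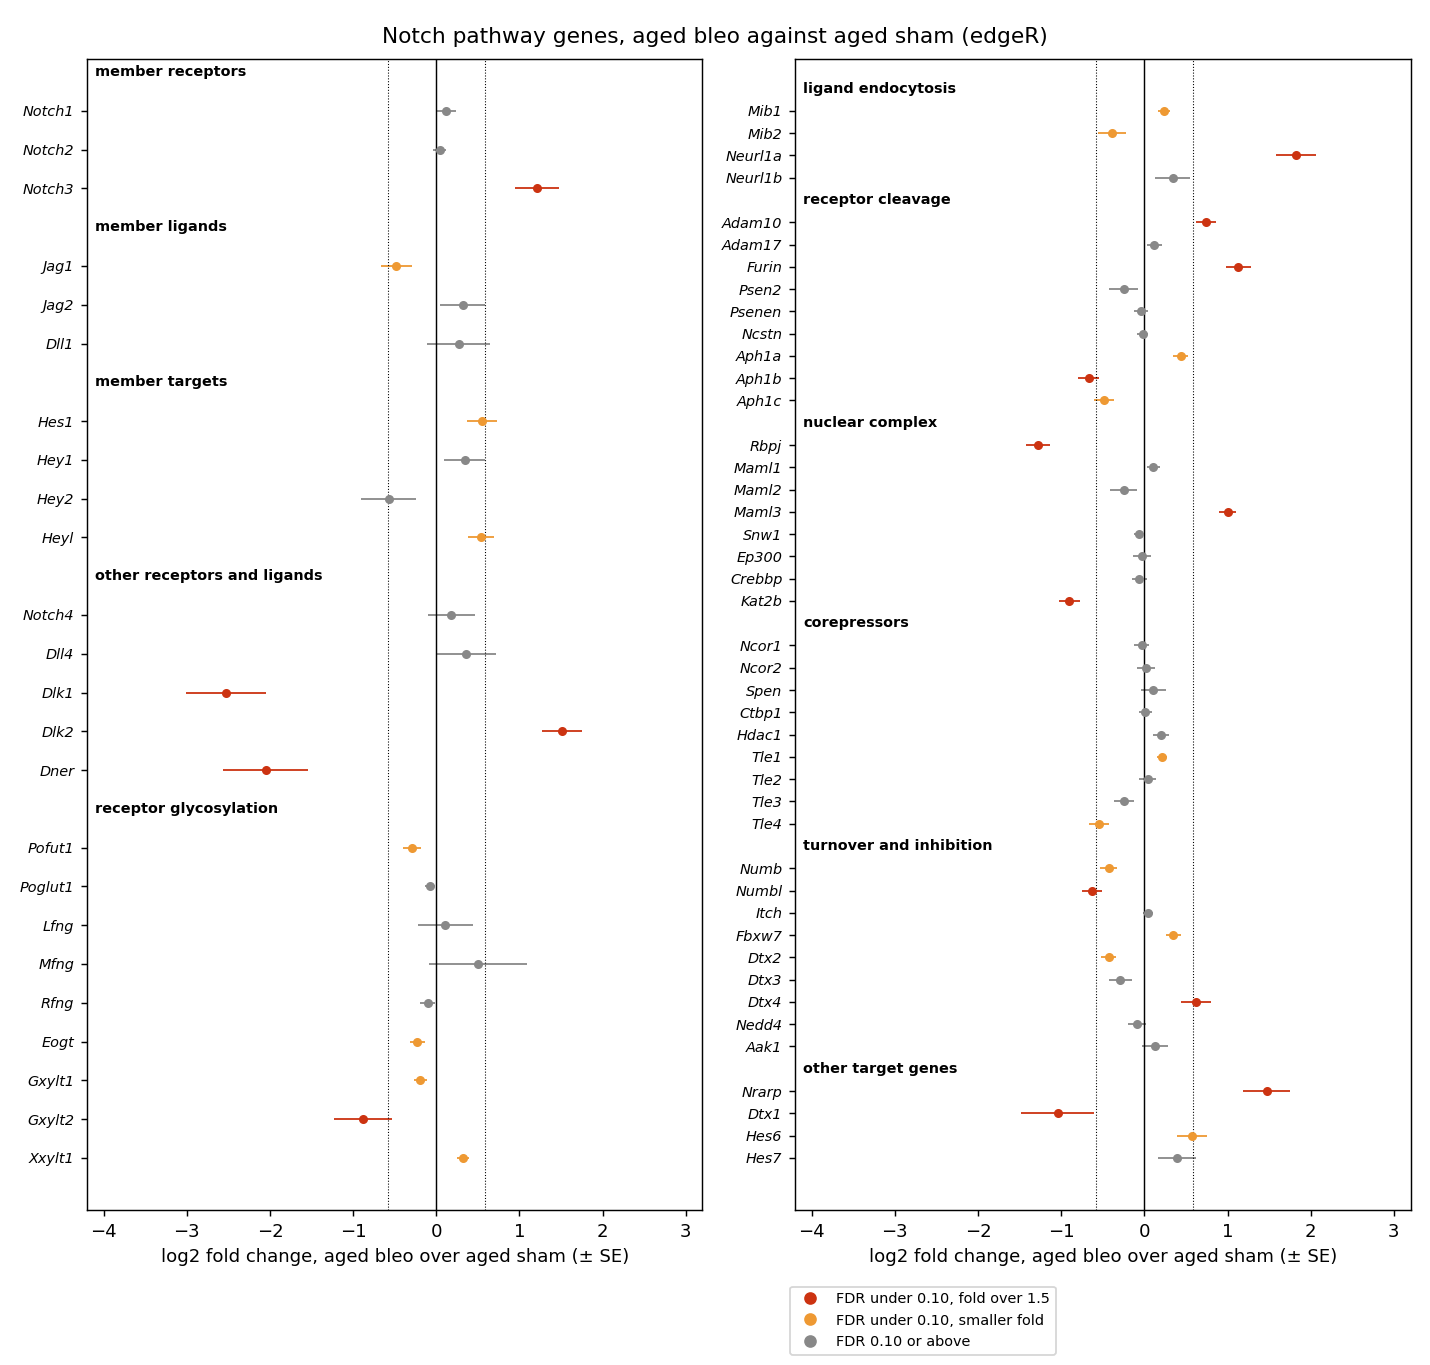
Log2 fold change of aged bleo over aged sham (horizontal axes, points, with the standard error as bars; edgeR, n = 4 and 5) for the 10 members and the tested genes of the other lists, with 1 gene not drawn. Red points passed both thresholds, orange points only the FDR, grey points neither, and the dotted lines mark a 1.5-fold change. Notch3 (1.21) was the red point among the members, and Rbpj (-1.28), Maml3 (1.00), Furin (1.13), Neurl1a (1.82), and Nrarp (1.47) were among those of the other lists.

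In the nuclear complex, 3 of 8 genes were called, beside 23.8% of all genes tested. Rbpj, which encodes the DNA-binding protein of the pathway, was at 105, 107, 113, and 134 CPM in aged sham 1 to 4 and at 48.5, 60.5, 49.5, 38.9, and 39.15 CPM in aged bleo 1 to 5. All aged bleo values lay below all aged sham values, a 2.42-fold fall (log2 fold change -1.28, SE 0.14, FDR 2.87e-04). Maml3, a Mastermind coactivator, rose from 16.9 ± 1.495 CPM (SD, n = 4) to 33.8 ± 3.59 CPM (SD, n = 5; log2 fold change 1.00, FDR 1.76e-04), and the acetyltransferase gene Kat2b fell from 107 ± 4.20 to 57.55 ± 10.25 CPM (log2 fold change -0.90, FDR 0.001095). Maml1, Maml2, Snw1, Ep300, and Crebbp had no called change, with log2 fold changes from -0.25 to 0.11. Of the 9 corepressor genes, 0 were called by edgeR, by DESeq2, or by limma. Tle1 (log2 fold change 0.21, FDR 0.0293) and Tle4 (-0.54, FDR 0.00766) were the 2 with an unadjusted p under 0.05 in edgeR, and both had an FDR under 0.10 and no overlap between the groups. Tle4 passed the fold threshold without aged sham 2 (-0.59) or without aged bleo 2 (-0.62).

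In receptor cleavage, 3 of 10 genes were called, beside 23.8% of all genes tested. Adam10, the protease of the ligand-dependent cleavage, was at 109, 87.7, 93.0, and 101 CPM in aged sham and at 155, 132, 157, 172, and 197 CPM in aged bleo, with no overlap (log2 fold change 0.74, SE 0.12, FDR 0.0023). Furin, which processes the receptor precursor, rose from 82.3 ± 2.24 CPM (SD, n = 4) to 180.2 ± 37.95 CPM (SD, n = 5; log2 fold change 1.13, FDR 7.30e-04). Of the gamma-secretase genes, Aph1b fell (log2 fold change -0.67, FDR 0.00491) and Aph1a (0.44) and Aph1c (-0.48) had an FDR under 0.10 with smaller folds. Aph1b and Aph1c are close paralogs, and how reads shared between them were counted is not stated.

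Of the genes for ligand endocytosis, Neurl1a, a ubiquitin ligase of the Neuralized type, was at 3.02, 1.69, 1.97, and 3.13 CPM in aged sham and at 10.6, 6.13, 9.60, 9.33, and 7.69 CPM in aged bleo (log2 fold change 1.82, SE 0.24, FDR 7.81e-04), while Mib1, the main ligase of this step, was higher at an FDR under 0.10 by less than the fold threshold (log2 fold change 0.24). Of 9 glycosylation genes 1 was called, the xylosyltransferase gene Gxylt2 (log2 fold change -0.88, FDR 0.07395), and this call was lost with any of 5 libraries left out. Among the other receptors and ligands, Notch4 and Dll4 had no called change (log2 fold changes 0.18 and 0.36) at levels under 1.3 CPM. The noncanonical ligand genes Dlk1 and Dner fell (log2 fold changes -2.53 and -2.05, FDR 0.00487 and 0.01407), from 2.05 and 6.53 CPM in aged sham, and Dlk2 rose (1.51, FDR 0.002075) from 0.217 CPM, each without overlap. Dlk2 was under the count filter, and so not tested, without aged bleo 1 or aged bleo 4.

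Among regulators of turnover, Dtx4, a Deltex-type ubiquitin ligase gene, rose (log2 fold change 0.62, FDR 0.0276) and Numbl, a gene of the Numb family of Notch inhibitors, fell (-0.63, FDR 0.00443). Numb itself was lower with a smaller fold (-0.43, FDR 0.0129). The Dtx4 call was lost without aged sham 1 (0.53) or aged bleo 1 (0.47), and the Numbl call without aged bleo 5 (-0.55). Of the other target genes, Nrarp, which encodes a feedback inhibitor of the Notch complex, was at 1.02, 0.667, 0.623, and 0.605 CPM in aged sham and at 2.10, 1.49, 2.11, 1.43, and 3.00 CPM in aged bleo (log2 fold change 1.47, SE 0.28, FDR 0.00457). The lowest aged bleo library was above the highest aged sham library. Dtx1, another target, was lower (log2 fold change -1.04, FDR 0.0922), a call lost with any of 7 libraries left out. Hes6, in this list as a Hes family gene, had a log2 fold change of 0.57 (FDR 0.0368). This was under the fold threshold, which Hes6 passed with any of 5 libraries left out. Whether Hes6 responds to Notch in these cells was not tested.

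**Figure D4:**
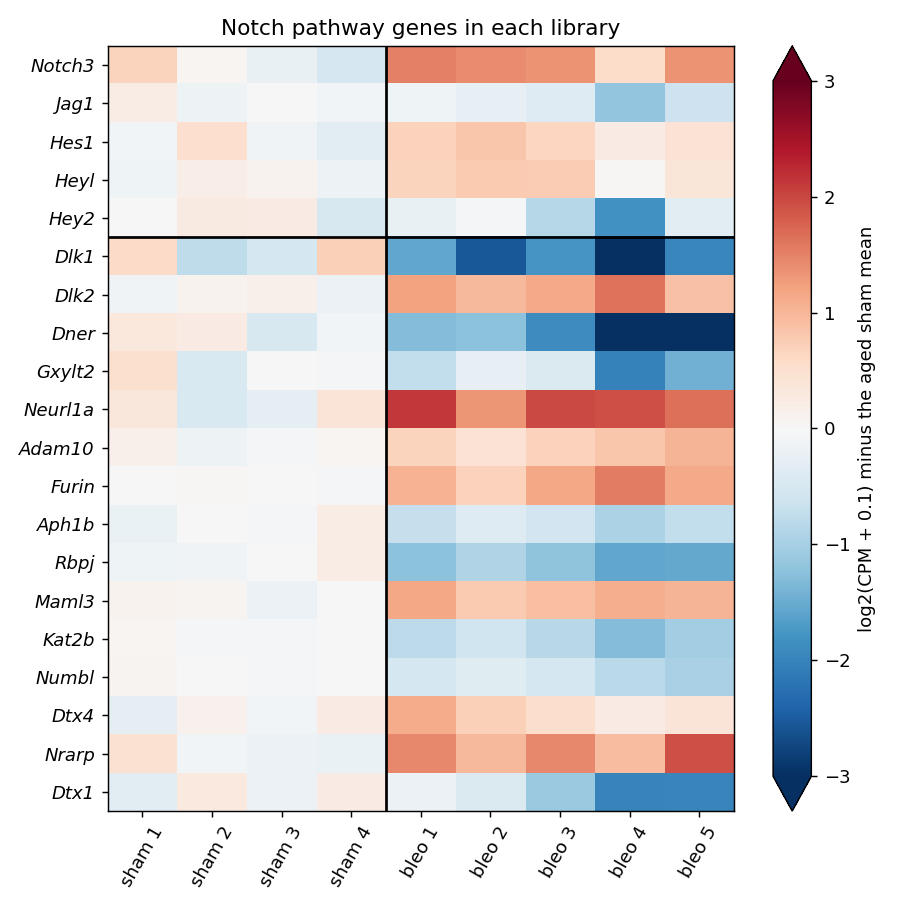
Level of 5 members and the 15 called pathway genes in each library, as the difference of log2(CPM + 0.1) from the aged sham mean (colour, red higher and blue lower; values beyond 3 are drawn at the end of the scale). Columns are the 4 aged sham and 5 aged bleo libraries, and the horizontal line separates the members from the other genes; Notch3 was less raised in aged bleo 4 than in the other aged bleo libraries, while Rbpj was among its lowest there.

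Markers of cells that also use these genes were read beside the members. Of 10 pericyte and vascular smooth muscle markers, 4 were called higher in aged bleo (Pdgfrb, Higd1b, Cox4i2, and Trpc6, log2 fold changes 0.66 to 4.09) and 2 lower (Kcnj8 and Abcc9), and Cspg4, Rgs5, Mcam, and Ndufa4l2 were not called. Their summed level was 1297 to 1607 CPM in aged sham and 852 to 1528 CPM in aged bleo, lowest in aged bleo 4. Abcc9 alone made up 579 to 716 CPM in aged sham and 91.6 to 477 CPM in aged bleo, and without it the other 9 summed to 662.5 to 948 CPM and 760.5 to 1122 CPM. This sum, too, was lowest in aged bleo 4 within its group, where Notch3, Jag1, Hes1, Heyl, and Hey2 were also lowest of their group. The other members were not lowest there. Notch2 was highest in aged bleo 4 (160.3 CPM), Notch1, Jag2, and Hey1 were lowest in aged bleo 5, and Dll1 in aged bleo 2. Of 8 smooth muscle contractile markers, 3 were called lower (Myh11, Cnn1, and Lmod1), with sums of 3282 to 6659 CPM in aged sham and 2414 to 3641 CPM in aged bleo. Of the 11 endothelial markers tested, 4 were called higher and 1 lower (Tek, log2 fold change -2.48), and those called higher were Kdr, Erg, Egfl7, and Ptprb (0.61 to 1.04). The sum of all 12 was 189 to 227 CPM in aged sham and 64.9 to 115 CPM in aged bleo, of which Tek made up 149 to 179 CPM and 9.51 to 55.75 CPM. With Tek left out, aged bleo had the higher sum of the other 11 (55.35 to 66.8 CPM, against 39.4 to 48.3 CPM), without overlap. Among the 4 called higher, Erg rose from a mean of 8.61 CPM to 17.7 CPM. Not all of the 11 rose. Pecam1 and Vwf had lower means after bleomycin without passing the test (log2 fold changes -0.49 and -0.56, FDR 0.134 and 0.161). Cdh5 had no detectable change (log2 fold change -0.03), at 0.753 to 2.26 CPM in the 9 libraries. The leukocyte markers (4 of 12 called higher and 1 lower) were highest in aged bleo 4, and without that library the log2 fold changes of Notch3, Hes1, and Heyl were 1.33, 0.62, and 0.64. Of 10 immediate early genes, 10 were called lower, and of 10 cell cycle genes 9 were called higher. Of 10 fibroblast markers, 4 were called higher and 4 lower. Of the 11 epithelial markers tested, 1 was called higher and 2 lower, and of 6 mesothelial markers 0 were called. Over all genes tested, 12.3% were called higher and 11.5% lower. No gene of these lists was at 0 counts in all libraries. The part of these cells and programs in the changes of the Notch genes was not tested.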

How the data were processed

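RNA-Seq libraries (TruSeq kit, polyadenylated RNA) came from 4 aged sham and 5 aged bleo mice and were grouped by their sample labels. The authors deposited 1 table with raw read counts per gene, and FPKM values that the authors divided by gene length and by a library total of 2.27 to 2.42 times the summed counts. The submitters' processing notes name bcl2fastq, STAR 2.5.2b, Subread, featureCounts, and mm10 (GRCm38); use of strand is not given in the sources used here. Counts of the same group differed by 31.7 to 462 times the counting noise (chi-square divided by its degrees of freedom), so no library was a duplicate.

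Genes with a mean count of at least 25 were tested with edgeR 4.0.16 in R 4.3.3 (TMM, quasi-likelihood test, no covariate, Benjamini-Hochberg over all genes tested). Standard errors came from the fold change and its test. Alternatives were DESeq2 1.42.0, limma 3.58.1 on log2 CPM and on log2(FPKM + 0.1) and log2(FPKM + 1), a robust fit, RLE normalization, scaling by library size, testing without a filter or with a minimum of 10 counts per library, FDR under 0.05 with fold change over 2, a replicate block, each library left out, and, for shares, counts without length and log2 ratios. The tests were tested on simulated data. Named genes are the members, the called genes of each list with up to 3 others, and the 3 genes closest to a member by root mean square difference of centred log2 CPM. The members and lists were chosen with earlier results of these data known. Promoters came from RefSeq (GRCm38.p6). Of the members, 7 of 10 have the same position in GENCODE M21. The values of 1 listed gene are not reported here, and the counts of its list include it.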

Additional observations from a re-analysis of the deposited data

Results flagged for a closer look

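Within 46 groups of values (the levels and shares of the Notch genes in each condition), 7 held 1 library far from the rest, where chance gives about 1 in 20. Levels and shares come from the same reads, so these groups of values are not independent. The number of such groups was not tested against chance. Aged bleo 4 was the lowest of its group in Notch3 (88.1 CPM, next 153 CPM). It also had the highest shares of Notch2 among receptors (50.3%, next 39.7%), of Jag2 among ligands (2.86%, next 1.86%), and of Hes1 among targets (40.9%, next 36.8%). Aged sham 1 was the highest of its group in Dll1, both in level (4.38 CPM, next 1.56 CPM) and in its share of ligand FPKM (6.79%, next 2.97%). Aged bleo 3 had the highest share of Heyl among targets (57.6%, next 53.55%).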

How the results depend on the processing

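Notch3 kept its call in all 9 fits with 1 library left out and under all 11 other settings, with an FDR up to 0.0256 and 0.00876. The number of Notch members called was 2 with limma on log2(FPKM + 0.1) (Hes1 and Notch3), 3 with the replicate block (Hes1, Hey2, and Notch3), and 1 to 3 with a library left out. Genes called numbered 1785 with limma on log2(FPKM + 1) and 2158 with FDR under 0.05 and fold change over 2, and 3525 to 4597 with a library left out; of the other pathway genes, 5 and 8 were called under these 2 settings. The replicate block gave 3536 genes. The deviations of same-numbered libraries from their group means had correlations of 0.0922, 0.0623, -0.13, and 0.326. Libraries of different numbers were not compared in this way, so pairing by number was not tested. The number of shares that changed was 4 for ligands and 2 for targets as log2 ratios, 2 for targets from counts without length, and 0 to 3 for receptors, 0 to 4 for ligands, and 0 to 2 for targets with a library left out. Notch2 turned to -0.01 (log2 fold change) without aged sham 2, and ranged up to 0.10. The share of Hey1 turned to 0.0101 percentage points higher without aged bleo 5 (down to -0.22 without aged bleo 2), and Dll3 to 0.23 as a log2 ratio. The causes were not tested. Jag2, Dll1, and Hey1 had 21 to 271 counts per library, and the part of depth in their missing calls was not tested.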
